A study of Mus musculus with 8 samples.

Results

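The laminins and the glycoproteins and proteoglycans that share the extracellular matrix with them were followed as a set of 40 genes in the yolk sac of the E9.5 mouse embryo. The set was drawn up by name and function, with earlier results of these data known. It holds 13 genes of the basement membrane, 2 adhesive glycoproteins, 15 genes of elastic fibers and their crosslinking, 6 matricellular genes and 4 proteoglycans, out of 18194 genes with a probe set of their own. Of the 40 genes, 37 had such a probe set, 31 had signals high enough to be tested, and 6 (Lama3, Lamb3, Fbln2, Eln, Mfap5 and Thbs1) lay below the filter on low signals. Fbn1 and Spp1 matched no probe set and Loxl2 only probe sets that it shares with another gene, so these 3 genes were not analysed here.

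RNA of whole yolk sac tissue at embryonic day 9.5 was measured on 8 Affymetrix arrays, 2 in each of 4 groups. EC-N1ICD yolk sacs carried a Tie2 transgene and a ROSA allele that expresses the intracellular domain of Notch1 once Cre has removed a stop cassette (Tie2 Tg/0 with ROSA +/N1ICD, strain C57BL6), and the wild type of that set carried neither (Tie2 0/0 with ROSA +/+, strain C57BL6). EC-Rbpj-KO yolk sacs carried Tie2-Cre and 2 floxed alleles of Rbpj (Rbpj flox/flox, mixed strain), and the wild type of that set is labelled as mixed strain with no genotype given. The comparison was always with wild type yolk sacs of the same set, to ask how gain and loss of Notch signaling in the endothelium alter expression in the yolk sac. Tie2 drives Cre in endothelial cells and in part of the blood lineage, whereas the RNA came from all layers of the tissue, so that fewer cells of a type and less RNA per cell cannot be told apart.

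A basement membrane is a thin sheet of laminin and collagen IV networks, joined by nidogens and heparan sulfate proteoglycans, on which epithelia and endothelia rest. Laminins are trimers of an alpha, a beta and a gamma chain, and the alpha chain sets which integrins and other receptors a cell uses to hold on to the sheet. In the yolk sac the visceral endoderm lies against a mesoderm layer that carries the vessels, with matrix between them. Fibronectin is required for the vessels of the early embryo and yolk sac to form, and elastic fiber proteins gather around vessels as mural cells are recruited.

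The signals of a probe set are linear MAS5 intensities. A fold is the ratio of geometric means of mutant over wild type, a log2 fold change is its logarithm, and a gene was said to rise or fall where limma's adjusted p over all 10913 tested genes was under 0.05. Rbpj gave signals of 470 and 497 in EC-Rbpj-KO yolk sacs versus 984 and 919 in wild type (log2 fold change -0.98, adjusted p = 0.00866), and Notch1 gave signals of 455 and 538 in EC-N1ICD yolk sacs versus 453 and 335 in wild type (log2 fold change 0.34, adjusted p = 0.554). Between arrays, the median over all probe sets was 38 to 51. Xist, which is transcribed from the inactive X chromosome, gave signals of 3600 and 3730 in EC-N1ICD yolk sacs versus 96 and 96 in their wild type, and 2005 and 84 in EC-Rbpj-KO yolk sacs versus 90 and 77 in theirs. Sex and genotype therefore cannot be told apart within the EC-N1ICD set, and a term for sex in the fit of all 8 arrays is set by the EC-Rbpj-KO arrays. The ratio of 3′ to 5′ signal of Actb, a sign of RNA quality, was 1.72 and 1.75 in EC-N1ICD versus 2.10 and 2.34 in wild type. In the other set it was 2.29 and 2.09 in EC-Rbpj-KO versus 1.90 and 1.84 in wild type, so that it moved with genotype. The same ratio of Gapdh was 2.43 and 2.48 in EC-N1ICD versus 3.12 and 2.76 in wild type. It was 4.64 and 3.45 in EC-Rbpj-KO versus 3.17 and 3.51 in wild type, where the groups overlapped. The part of RNA quality in the results was not tested. Markers of visceral endoderm were high in every group, with summed signals of 165486 to 169025 in EC-N1ICD and 164420 to 169855 in its wild type, and of 163680 to 174363 in EC-Rbpj-KO and 173902 to 188062 in its wild type. Whether each array held RNA of its own embryo is not spelled out in the labels, so the p-values speak only for the spread between these arrays.

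In EC-N1ICD yolk sacs, 2 of the 31 tested matrix genes rose, Vtn and Fbn2, and none fell. This is 6.45% of the matrix genes, against 0.596% of all tested genes called in that comparison (0.376% that rose and 0.22% that fell). As the set was chosen with earlier results of these data known, the shares called here and below are a description only. At an unadjusted p under 0.05, 10 matrix genes passed, 7 higher and 3 lower, against 12% of all tested genes. In EC-Rbpj-KO yolk sacs, 3 matrix genes changed. Vtn rose, and Fn1 and Vcan fell. This is 9.68% of the matrix genes, against 4.96% of all tested genes (2% that rose and 2.96% that fell), and at an unadjusted p under 0.05, 9 passed, 3 higher and 6 lower, against 19.9% of all tested genes. The change in Fbn2 differed between both models, 1 of 31 genes (3.23%) against 0.266% of all tested genes, and 6 genes passed that test at an unadjusted p under 0.05, against 10.8% of all tested genes. The median log2 fold change of the 31 genes was 0.18 in EC-N1ICD yolk sacs and 0.00 in EC-Rbpj-KO, beside medians of 0.01 and -0.02 over all tested genes. The 0.18 became 0.06 without wild type replicate 2 of that set, 0.12 without EC-N1ICD replicate 1, 0.10 with arrays centred on their median and 0.04 with a term for sex.

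**Figure D1:**
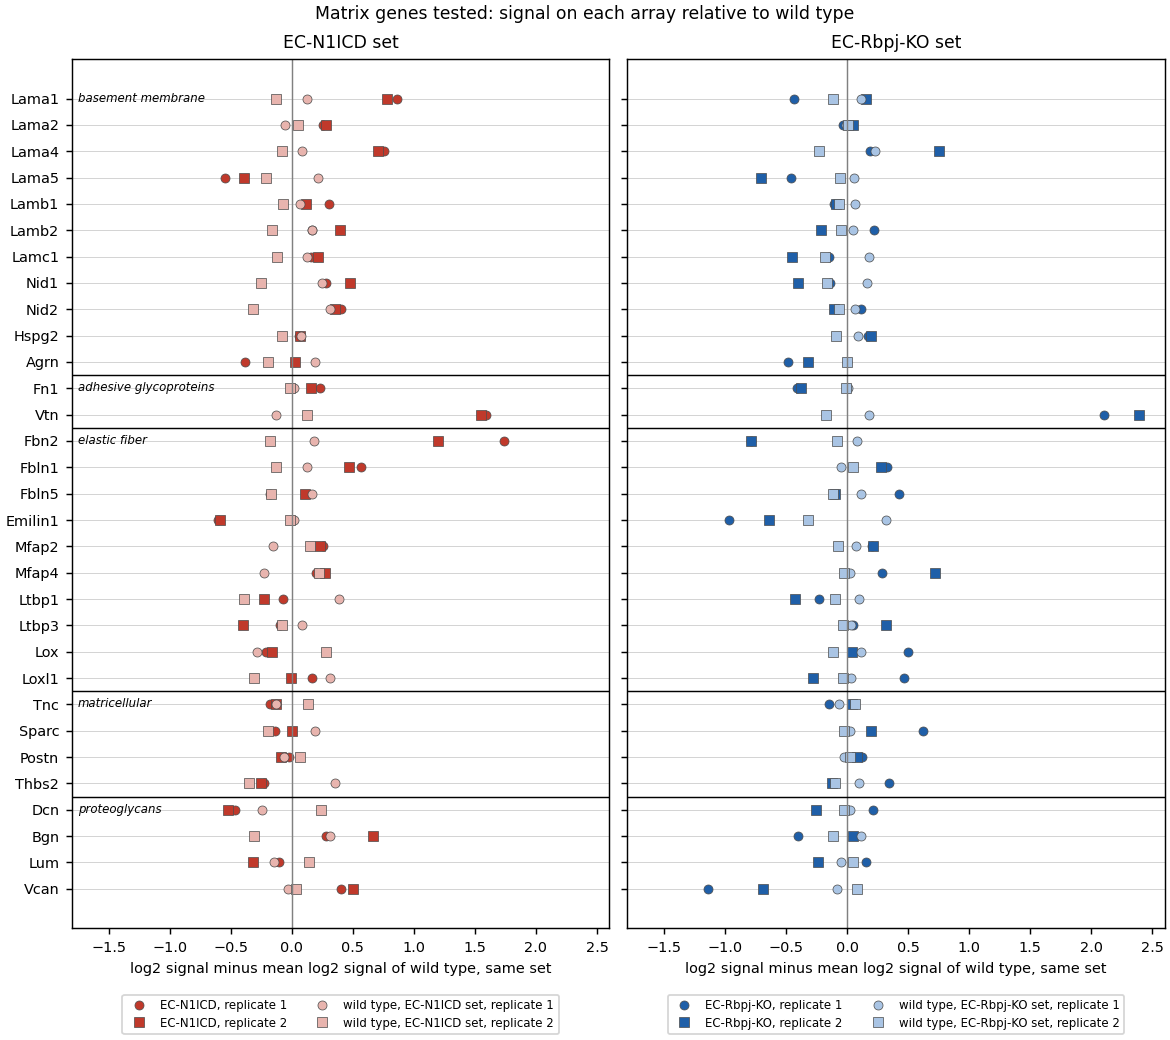
The log2 signal of each tested matrix gene on each array minus the mean log2 signal of the wild type of its set, with EC-N1ICD and its wild type in the left panel and EC-Rbpj-KO and its wild type in the right panel. Both mutant arrays lay above both wild type arrays for 13 genes and below them for 4 in the EC-N1ICD set, and for 8 and 8 genes in the EC-Rbpj-KO set.

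Both EC-N1ICD arrays lay above both wild type arrays for 13 of the 31 genes (23.7% of all tested genes did) and below them for 4 (18.9% of all tested genes). Both EC-Rbpj-KO arrays lay above both wild type arrays for 8 genes (23.3% of all tested genes) and below them for 8 (27.5% of all tested genes). The groups did not overlap for many genes that did not pass the test, as the plot of all tested matrix genes by array shows.

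In the basement membrane class none of the 11 tested genes was called in either model by limma. At an unadjusted p under 0.05, 3 passed in EC-N1ICD yolk sacs (12% of all tested genes did) and 2 in EC-Rbpj-KO yolk sacs (19.9%). Of the 11 genes, 9 had positive and 2 negative log2 fold changes in EC-N1ICD, with a median of 0.27, and 5 were positive and 6 negative in EC-Rbpj-KO, with a median of -0.10. The median log2 signal of the class relative to wild type was 0.25 and 0.28 for both EC-N1ICD arrays against 0.12 and -0.12 on their wild type arrays, and -0.11 on both EC-Rbpj-KO arrays against 0.06 and -0.06 on theirs. Under a term for sex the EC-N1ICD median was 0.11, and without wild type replicate 2 of that set it was 0.12. Markers of parietal endoderm, a cell that secretes much laminin into Reichert's membrane, differed between groups in the same tissue. Their 5 genes had summed signals of 1438 to 1633 in EC-N1ICD and 973 to 1293 in wild type, where 1 of 3 tested fell, and 1895 to 2040 in EC-Rbpj-KO versus 1078 to 1187 in wild type, where 2 of 3 rose. The sums include genes below the filter on low signals, and the part of these markers in the laminin signals was not tested.

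Lama1 encodes the alpha chain of laminin-111, the laminin of the earliest embryonic basement membranes. Its signals were 820 and 776 in EC-N1ICD yolk sacs versus 492 and 414 in wild type, and 545 and 821 in EC-Rbpj-KO versus 797 and 682 in wild type. Both EC-N1ICD arrays were above both of their wild type arrays, whereas in the other set the groups overlapped and the EC-Rbpj-KO arrays lay farther apart than the wild type arrays did. The log2 fold change of 0.82 in EC-N1ICD (standard error 0.21) did not pass the test (limma adjusted p = 0.12), nor did that of -0.14 in EC-Rbpj-KO (adjusted p = 0.758) or the difference of 0.96 between the models (adjusted p = 0.27). Without either EC-Rbpj-KO array, whose spread enters the shared error, Lama1 did pass in EC-N1ICD.

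Lama4, the alpha chain of the laminins of endothelial basement membranes, gave signals of 396 and 383 in EC-N1ICD versus 249 and 222 in wild type. In the other set it had 156 and 230 in EC-Rbpj-KO versus 160 and 117 in wild type. The EC-N1ICD arrays were above their wild type arrays and the groups of the other set overlapped. The log2 fold changes were 0.73 in EC-N1ICD (standard error 0.24, limma adjusted p = 0.216) and 0.47 in EC-Rbpj-KO (adjusted p = 0.296).

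Lama5, the alpha chain of laminins under mature endothelium and many epithelia, had lower signals in both mutants. These were 230 and 257 in EC-N1ICD versus 390 and 290 in wild type, and 336 and 284 in EC-Rbpj-KO versus 480 and 444 in wild type. Both mutants had signals below those of both wild type arrays of their set, on this probe set. Its log2 fold changes of -0.47 and -0.58 did not pass the test (limma adjusted p = 0.374 in EC-N1ICD yolk sacs and 0.126 in EC-Rbpj-KO), and a further probe set, on which the groups of the EC-N1ICD set overlapped, gave -0.33 and -0.45. Lama2, the alpha chain of muscle and nerve laminins, gave signals of 67 to 102 on all 8 arrays and log2 fold changes of 0.27 in EC-N1ICD yolk sacs and 0.01 in EC-Rbpj-KO.

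Of the beta and gamma chains, Lamb1, the beta chain of laminin-111, gave signals of 6649 and 5830 in EC-N1ICD versus 5642 and 5136 in wild type, and 4531 and 4581 in EC-Rbpj-KO versus 5111 and 4674 in wild type. The groups did not overlap in either set, and the log2 fold changes of 0.21 (limma adjusted p = 0.504) and -0.10 (adjusted p = 0.661) were not called. Its size depended on the probe set, since 2 others, with lower signals above the array medians, gave 0.26 and 0.49 in EC-N1ICD yolk sacs, and -0.61 and -0.72 in EC-Rbpj-KO, where both mutant arrays were below both wild type arrays. Lamc1, the gamma chain of most laminins, gave signals of 443 and 460 in EC-N1ICD versus 433 and 365 in wild type, and 848 and 686 in EC-Rbpj-KO versus 1063 and 827 in wild type. Its log2 fold change in EC-N1ICD was 0.18, and in EC-Rbpj-KO it was -0.30 on this probe set and 0.14 on the other, so its sign there depends on the probe set. Lamb2, the beta chain of mature and synaptic laminins, had log2 fold changes of 0.28 and 0.01 in EC-N1ICD and EC-Rbpj-KO.

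Lamb3, the beta chain of the laminin that anchors epidermis, lay below the filter. Its signals were 24 and 25 in EC-N1ICD versus 17 and 22 in wild type, and 94 and 72 in EC-Rbpj-KO versus 19 and 20 in wild type. On the 6 arrays outside the EC-Rbpj-KO group the signals were below the median of all probe sets, and both EC-Rbpj-KO arrays stood apart above it. In a fit of all genes without the filter, the log2 fold change was 2.08 in EC-Rbpj-KO (standard error 0.27, limma adjusted p = 0.00263) and 0.34 in EC-N1ICD (adjusted p = 0.735), and the difference between the models was not called (adjusted p = 0.145). The fold of 4.22 is limited by background, and with 16 added to every signal it was 2.77 (adjusted p = 0.0021). Lama3, the alpha chain of the same epithelial laminin, gave signals of 28 and 47 in EC-Rbpj-KO versus 24 and 18 in wild type, and was not called without the filter (adjusted p = 0.276).

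The linkers of the basement membrane had small changes. Nid1 and Nid2, the nidogens that tie laminin to collagen IV, each differed by 0.38 on the log2 scale in EC-N1ICD (limma adjusted p = 0.499 for Nid1). In EC-Rbpj-KO the log2 fold change was -0.27 for Nid1 and 0.00 for Nid2. Hspg2, which encodes perlecan, gave signals of 484 and 486 in EC-N1ICD versus 490 and 439 in wild type, and 402 and 409 in EC-Rbpj-KO versus 380 and 337 in wild type. Agrn, which encodes the heparan sulfate proteoglycan agrin, gave signals of 1566 and 2070 in EC-N1ICD versus 2328 and 1782 in wild type. In the other set it had 2722 and 3042 in EC-Rbpj-KO versus 3800 and 3801 in wild type, where the groups stood apart. That change was -0.40 on the log2 scale (standard error 0.17) and did not pass the test (limma adjusted p = 0.211).

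Of the 2 adhesive glycoproteins, Vtn rose in both models and Fn1 fell in EC-Rbpj-KO. Vtn encodes vitronectin, which binds alpha v integrins and the plasminogen activator inhibitor PAI-1 and is secreted in quantity by liver. Its signals were 276 and 269 in EC-N1ICD yolk sacs versus 84 and 100 in wild type, and 1438 and 1760 in EC-Rbpj-KO yolk sacs versus 379 and 297 in wild type. In both sets the mutant arrays were far above the wild type arrays, with no overlap. Vtn rose 2.97-fold in EC-N1ICD (log2 fold change 1.57, standard error 0.20, limma adjusted p = 0.00719) and 4.74-fold in EC-Rbpj-KO (log2 fold change 2.25, standard error 0.20, limma adjusted p = 0.000253). The difference between the 2 rises was not called (-0.67, adjusted p = 0.403).

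A further probe set of Vtn gave signals of 112 and 88 in EC-N1ICD versus 44 and 26 in wild type, and 248 and 352 in EC-Rbpj-KO versus 95 and 95 in wild type. These are rises of the same direction, 2.94-fold and 3.11-fold. The call in EC-Rbpj-KO was kept under all 17 other settings of the limma fit. The call in EC-N1ICD was lost with a term for sex (log2 fold change 1.86, limma adjusted p = 0.0678), without EC-N1ICD replicate 1 (adjusted p = 0.0863) and without wild type replicate 1 (adjusted p = 0.053). Beside the change in EC-Rbpj-KO, 4 of 5 tested macrophage markers rose there, with summed signals of 2653 to 3348 in EC-Rbpj-KO and 774 to 1281 in wild type, while of 9 visceral endoderm markers none rose and 1 fell. In EC-N1ICD, 1 of 5 macrophage markers rose, with summed signals of 1348 to 1782 in EC-N1ICD and 912 to 979 in wild type. The macrophage sums include a gene below the filter on low signals, and the part of these markers in the Vtn signals was not tested.

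Fn1 encodes fibronectin, the matrix ligand of alpha 5 beta 1 integrin. Its signals were 8318 and 8481 in EC-Rbpj-KO yolk sacs versus 11092 and 10957 in wild type, and 11927 and 11338 in EC-N1ICD versus 10272 and 10066 in wild type. The replicates of each group lay close together, the EC-Rbpj-KO arrays below and the EC-N1ICD arrays above those of their wild type. In EC-Rbpj-KO, Fn1 fell by 0.39 on the log2 scale (standard error 0.08, limma adjusted p = 0.0166), while the log2 fold change of 0.19 in EC-N1ICD was not called (adjusted p = 0.349). The difference between the models was 0.59 and just missed the threshold (adjusted p = 0.0624). The fall is small and its call depends on settings. The adjusted p was 0.103 and 0.109 without either wild type array, 0.162 with arrays centred on their median, 0.157 in a fit without a trend of variance with signal, 0.311 with the mean of both probe sets, and 0.0515 without the filter, and in the 4 arrays of the set alone it was 0.0618.

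**Figure D2:**
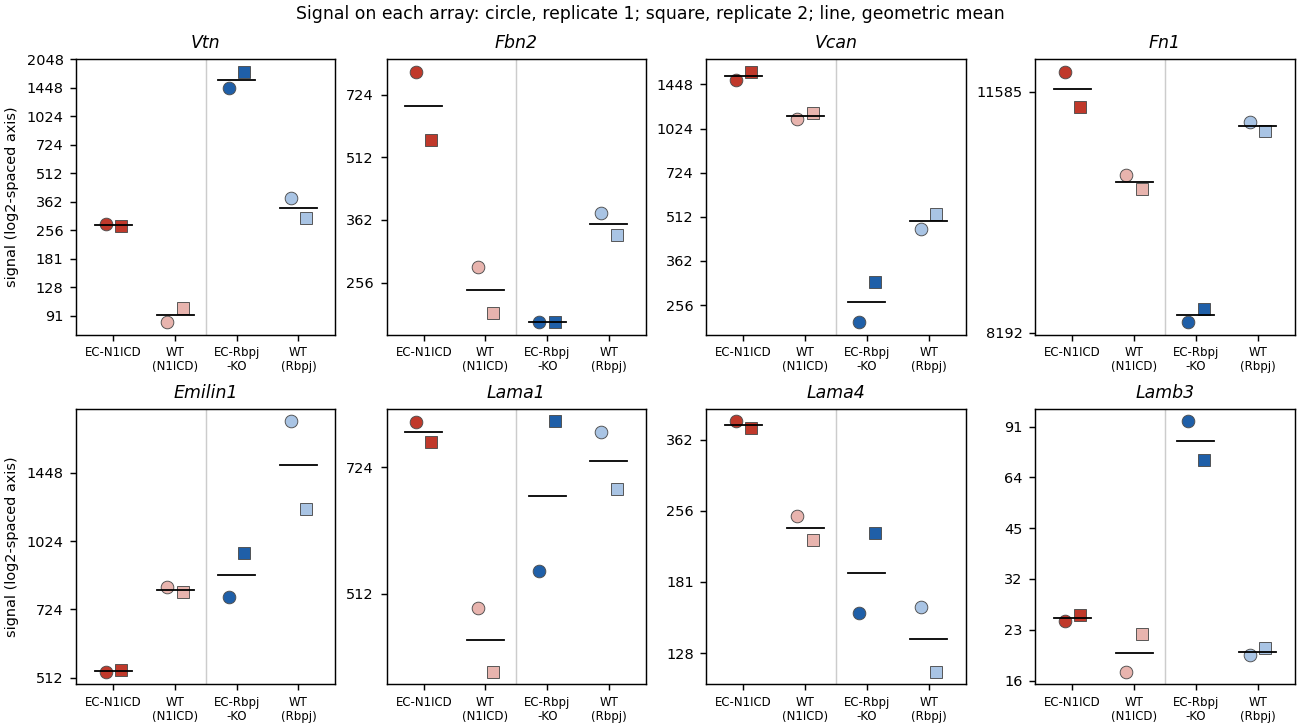
Signal of 8 matrix genes on each array on a log2-spaced axis, with each mutant left of its wild type, circles for replicate 1, squares for replicate 2 and a line at the geometric mean of the 2 arrays. Vtn was above wild type in both mutants, Fbn2, Vcan and Fn1 were above wild type in EC-N1ICD and below it in EC-Rbpj-KO, and Lamb3 was high on the EC-Rbpj-KO arrays alone (94 and 72).

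Among the 10 tested genes of elastic fibers, Fbn2 was called in EC-N1ICD and none in EC-Rbpj-KO, against 0.596% and 4.96% of all tested genes. In EC-Rbpj-KO 3 of them (Fbn2, Fbln1 and Emilin1) had an unadjusted limma p under 0.05, where 19.9% of all tested genes did. The median log2 fold change of the class was 0.02 in EC-N1ICD yolk sacs and 0.17 in EC-Rbpj-KO. The sign in EC-Rbpj-KO rested on 1 array, with 0.24 for replicate 1 and -0.03 for replicate 2, and was -0.03 without replicate 1 or with a term for sex. Fbn2 encodes fibrillin-2, the fibrillin of embryonic microfibrils, on which elastin is laid down and which bind latent TGF-beta. Its signals were 822 and 564 in EC-N1ICD versus 279 and 217 in wild type, and 206 and 206 in EC-Rbpj-KO versus 376 and 334 in wild type. The EC-N1ICD arrays were above and the EC-Rbpj-KO arrays below all wild type arrays of their set. Fbn2 rose 2.77-fold in EC-N1ICD (log2 fold change 1.47, standard error 0.22, limma adjusted p = 0.0156), while in EC-Rbpj-KO a log2 fold change of -0.78 was not called (standard error 0.22, adjusted p = 0.0647). The difference between the models, 2.25 on the log2 scale (standard error 0.31), passed the test (limma adjusted p = 0.0185).

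The size of the Fbn2 change depended on the probe set. A further probe set gave signals of 530 and 462 in EC-N1ICD versus 429 and 307 in wild type, and 292 and 243 in EC-Rbpj-KO versus 383 and 342 in wild type. Its log2 fold changes were 0.45 and -0.44, in the same directions and with a difference between models of 0.89. With the mean of both probe sets the rise in EC-N1ICD was 0.96 and was not called (limma adjusted p = 0.0776), and the difference was 1.57 (adjusted p = 0.0841). The rise also lost its call with a term for sex (adjusted p = 0.195), without EC-N1ICD replicate 1 (1.20, adjusted p = 0.183), and without wild type replicate 1 (adjusted p = 0.0526) or 2 (adjusted p = 0.0999). The difference lost its call without EC-N1ICD replicate 1 (adjusted p = 0.0863), without replicate 1 (adjusted p = 0.0567) or 2 (adjusted p = 0.0979) of that set's wild type, without replicate 1 of the EC-Rbpj-KO set's wild type (adjusted p = 0.0513), and in a fit without a trend (adjusted p = 0.0544). Of 4 tested smooth muscle markers 2 rose in EC-N1ICD, with summed signals of 18436 to 19611 in EC-N1ICD and 9489 to 10837 in wild type. None was called in EC-Rbpj-KO, with sums of 3714 to 4749 in EC-Rbpj-KO and 3658 to 3717 in wild type. Heart markers had sums of 2213 to 2780 in EC-N1ICD and 508 to 653 in wild type, with 1 of 2 tested called. In EC-Rbpj-KO the heart sums were 208 to 318 against 232 to 236 in wild type, with none called. These sums include genes below the filter on low signals, and the part of these markers in the Fbn2 signals was not tested.

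**Figure D3:**
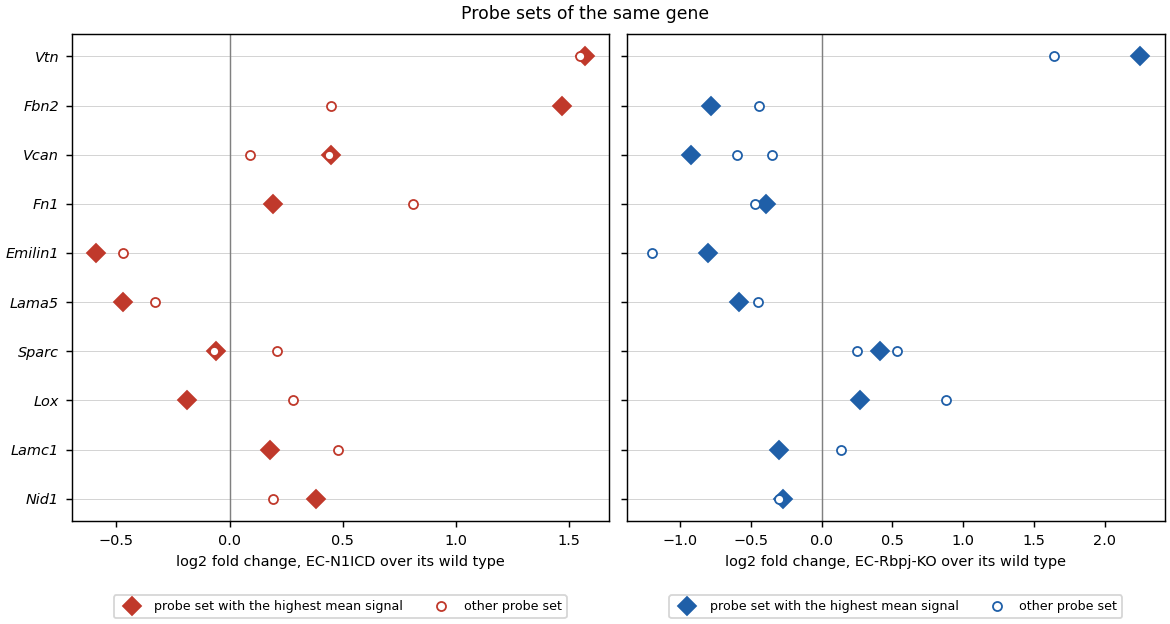
Log2 fold changes of 10 matrix genes by probe set, in EC-N1ICD (left) and EC-Rbpj-KO (right) over the wild type of each set, with a filled diamond for the probe set used, that of the highest mean signal, and open circles for other probe sets that were above the array median on at least 1 array. The probe sets of Vtn, Emilin1 and Lama5 lay on one side of 0 in both models, and those of Fbn2 had the same sign but differed in size (1.47 and 0.45 in EC-N1ICD). Those of Lox and Sparc in EC-N1ICD and of Lamc1 in EC-Rbpj-KO lay on opposite sides.

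Emilin1, a glycoprotein at the interface of elastin and microfibrils that restrains TGF-beta processing, gave signals of 528 and 533 in EC-N1ICD versus 811 and 791 in wild type, and 772 and 965 in EC-Rbpj-KO versus 1883 and 1206 in wild type. Both mutants were below both wild type arrays of their set, and in the EC-Rbpj-KO set the wild type arrays lay far apart. The log2 fold changes were -0.59 in EC-N1ICD (standard error 0.21, limma adjusted p = 0.261) and -0.80 in EC-Rbpj-KO (standard error 0.21, adjusted p = 0.0508), neither called. A further probe set gave -0.47 and -1.20. The value in EC-Rbpj-KO passed with arrays centred on their median (-0.87, adjusted p = 0.0238), with 16 added (adjusted p = 0.0485), with a stricter filter (adjusted p = 0.0435), with the mean of both probe sets (adjusted p = 0.0296) and without wild type replicate 2 (-1.13, adjusted p = 0.0355).

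Fbln1, a fibulin of elastic fibers and basement membranes, gave signals of 3162 and 2958 in EC-N1ICD versus 2336 and 1954 in wild type, and 3786 and 3671 in EC-Rbpj-KO versus 2922 and 3124 in wild type. Both mutants were above both wild type arrays of their set, with log2 fold changes of 0.52 (standard error 0.13, limma adjusted p = 0.115) and 0.30 (adjusted p = 0.214) that did not pass. Fbln5, which brings elastin to microfibrils, overlapped in both sets, with log2 fold changes of -0.04 in EC-N1ICD yolk sacs and 0.16 in EC-Rbpj-KO. Fbln2 lay below the filter, with signals of 77 and 67 in EC-N1ICD versus 62 and 44 in wild type, and 74 and 80 in EC-Rbpj-KO versus 63 and 51 in wild type.

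The remaining elastic fiber genes did not pass in either model. Mfap2, a microfibril glycoprotein, had log2 fold changes of 0.25 in EC-N1ICD yolk sacs and 0.21 in EC-Rbpj-KO, with both mutant arrays above both wild type arrays of each set. Mfap4, a fibrillin-binding microfibril protein, gave signals of 124 and 168 in EC-Rbpj-KO versus 104 and 100 in wild type, which is 0.50 on the log2 scale. The latent TGF-beta binding proteins Ltbp1 and Ltbp3 had log2 fold changes of -0.15 and -0.25 in EC-N1ICD, and of -0.33 and 0.19 in EC-Rbpj-KO. For Ltbp3 a further probe set gave 98 and 98 in EC-Rbpj-KO versus 126 and 138 in wild type, a change of -0.43, so that its sign there depends on the probe set. Lox, the oxidase that crosslinks elastin and collagen, gave signals of 1013 and 740 in EC-Rbpj-KO versus 778 and 662 in wild type, and a further probe set had 453 and 414 against 200 and 278, so that the log2 fold change was 0.27 or 0.88 by probe set. Loxl1, a related crosslinking enzyme, had log2 fold changes of 0.08 in EC-N1ICD yolk sacs and 0.10 in EC-Rbpj-KO. Eln, which encodes elastin itself, lay below the filter with signals of 34 to 83 on the 8 arrays, and Mfap5 was below the array median on all of them.

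None of the 4 tested matricellular genes was called. All 4 had negative log2 fold changes in EC-N1ICD, from -0.24 to -0.05, and in EC-Rbpj-KO they ran from -0.05 to 0.41. Sparc, a collagen-binding protein of remodeling matrix, gave signals of 7703 and 5731 in EC-Rbpj-KO versus 5103 and 4925 in wild type, and 2903 and 3195 in EC-N1ICD versus 3643 and 2786 in wild type. The EC-Rbpj-KO arrays were above their wild type arrays, by 0.41 on the log2 scale (standard error 0.16, limma adjusted p = 0.183), and a second well detected probe set gave 0.53. The groups overlapped in the EC-N1ICD set (log2 fold change -0.06). The parietal endoderm markers given with the laminins, a cell type rich in Sparc, had higher sums in both mutants than in wild type. Of the 3 tested, however, 1 fell and 0 rose in EC-N1ICD, while 2 rose in EC-Rbpj-KO. The part of these markers in the Sparc signals was not tested.

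Tnc, which encodes tenascin-C and marks remodeling mesenchyme, gave signals of 166 and 172 in EC-N1ICD versus 172 and 206 in wild type, and 409 and 467 in EC-Rbpj-KO versus 433 and 476 in wild type. Its groups overlapped in both sets, as did those of Thbs2, an antiangiogenic thrombospondin, with log2 fold changes of -0.24 and 0.11. A further Thbs2 probe set, with lower signals, gave 66 and 31 in EC-Rbpj-KO versus 80 and 74 in wild type. That is a change of -0.77, so that the sign for Thbs2 there depends on the probe set. Postn, which encodes periostin, gave signals of 4315 and 4132 in EC-N1ICD versus 4179 and 4587 in wild type, and 5101 and 4952 in EC-Rbpj-KO versus 4595 and 4757 in wild type. With a standard error of 0.10 its log2 fold changes of -0.05 and 0.10 were among the more precise of the set. Thbs1, an activator of latent TGF-beta, lay below the filter, with signals of 34 and 36 in EC-N1ICD versus 42 and 54 in wild type, and 82 and 76 in EC-Rbpj-KO versus 93 and 71 in wild type.

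Of the proteoglycans, Vcan was called. It encodes versican, a large chondroitin sulfate proteoglycan that binds hyaluronan and fills the early cardiovascular matrix. Its signals were 224 and 306 in EC-Rbpj-KO yolk sacs versus 466 and 523 in wild type, and 1497 and 1601 in EC-N1ICD versus 1107 and 1158 in wild type. The EC-Rbpj-KO arrays were below and the EC-N1ICD arrays above both wild type arrays of their set. Vcan fell to 0.53 of the wild type level in EC-Rbpj-KO (log2 fold change -0.92, standard error 0.18, limma adjusted p = 0.0158), while the log2 fold change of 0.45 in EC-N1ICD was not called (standard error 0.18, adjusted p = 0.344). The difference between the models was 1.37 (standard error 0.26, adjusted p = 0.0624), and it passed with a term for sex (1.59, adjusted p = 0.0199) and without EC-Rbpj-KO replicate 2 (1.59, adjusted p = 0.0184).

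Vcan has 8 probe sets, of which 5 were below the array median on every array. The other 2 gave log2 fold changes of -0.35 and -0.60 in EC-Rbpj-KO and of 0.44 and 0.09 in EC-N1ICD, in the same directions as the one used. With the mean of all 8 the value in EC-Rbpj-KO was -0.15 (limma adjusted p = 0.644), and the fall was also not called with a term for sex (-0.69, adjusted p = 0.0538), without wild type replicate 1 (adjusted p = 0.0658) or 2 (-0.83, adjusted p = 0.154), and in the 4 arrays of the set alone (adjusted p = 0.065). EC-Rbpj-KO replicate 1, whose Vcan signal was the lower of the pair, is the array of that set with Xist signal.

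The small leucine-rich proteoglycans were not called. Dcn, which encodes the collagen-binding decorin, gave signals of 1236 and 1188 in EC-N1ICD versus 1441 and 2015 in wild type, and 2078 and 1498 in EC-Rbpj-KO versus 1823 and 1759 in wild type. The EC-N1ICD arrays were below their wild type arrays (log2 fold change -0.49, limma adjusted p = 0.333) and the other set overlapped (-0.02). Bgn, which encodes biglycan, overlapped in both sets on the probe set used, with log2 fold changes of 0.47 and -0.18. On its other probe sets both EC-N1ICD arrays were above both wild type arrays (0.61 and 0.52). In EC-Rbpj-KO those gave -0.30, without overlap, and -0.07, with overlap. Lum, which encodes lumican, gave signals of 6660 to 9369 on the 8 arrays and log2 fold changes of -0.21 and -0.04.

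**Figure D4:**
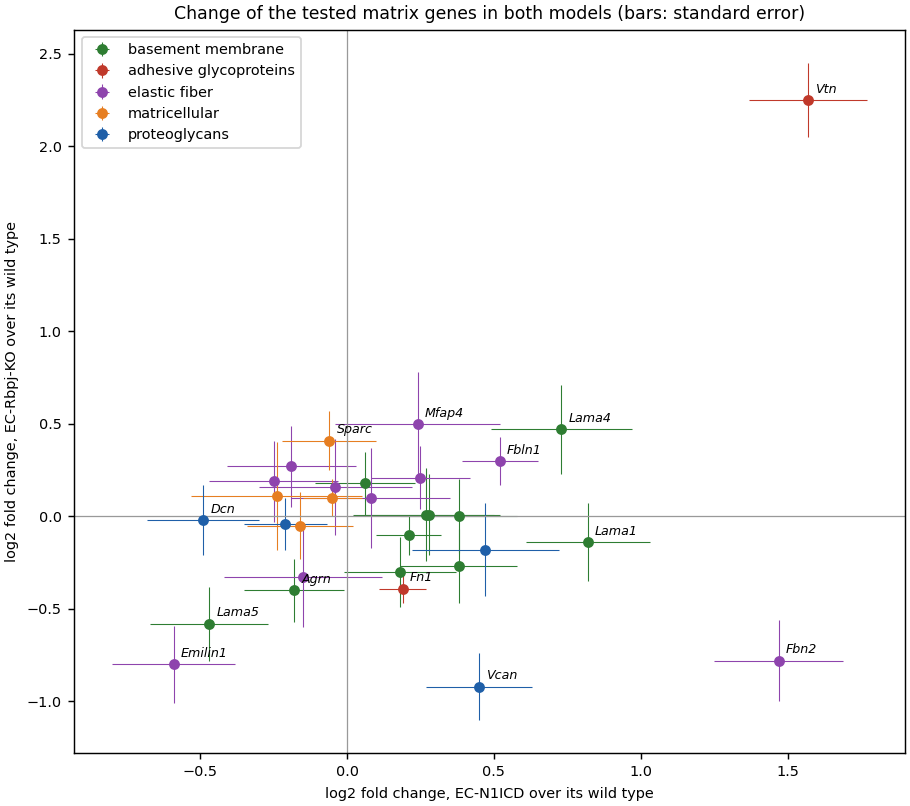
Log2 fold change of each of the 31 tested matrix genes in EC-N1ICD (horizontal) and EC-Rbpj-KO (vertical), each over the wild type of its set, colored by class, with bars of 1 standard error. Vtn lies at 1.57 and 2.25, Fbn2 at 1.47 and -0.78, Vcan at 0.45 and -0.92 and Emilin1 at -0.59 and -0.80.

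Promoter sequences of Vtn and Vcan, which were called, and of Lamb3, which was called only without the filter, are given. They are shown for matches to GTGGGAA, the core RBPJ consensus that the paper used, which only Vcan of the 3 holds. They come from RefSeq on build GRCm38.p6 and run 5′ to 3′ on the strand of the gene over the 250 bases before the annotated start. They lie at chr11:78498870-78499119 on the plus strand for Vtn, chr13:89742513-89742762 on the minus strand for Vcan and chr1:193301744-193301993 on the plus strand for the first of 2 starts of Lamb3. Capitals mark GTGGGAA or its core TGGGAA in all 3, TATAAA and its overlapping match on the other strand in Vtn, and GGGCGG or its reverse complement in Vcan.
Vtn: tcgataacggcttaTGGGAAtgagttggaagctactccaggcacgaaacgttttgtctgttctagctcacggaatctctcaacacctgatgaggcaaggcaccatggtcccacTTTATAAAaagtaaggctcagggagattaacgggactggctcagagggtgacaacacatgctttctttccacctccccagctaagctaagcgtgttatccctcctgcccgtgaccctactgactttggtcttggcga
Vcan: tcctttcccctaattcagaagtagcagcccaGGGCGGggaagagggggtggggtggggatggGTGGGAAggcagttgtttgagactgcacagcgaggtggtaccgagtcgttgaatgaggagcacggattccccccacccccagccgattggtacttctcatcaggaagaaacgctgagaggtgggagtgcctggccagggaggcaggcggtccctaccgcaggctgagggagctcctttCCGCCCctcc
Lamb3: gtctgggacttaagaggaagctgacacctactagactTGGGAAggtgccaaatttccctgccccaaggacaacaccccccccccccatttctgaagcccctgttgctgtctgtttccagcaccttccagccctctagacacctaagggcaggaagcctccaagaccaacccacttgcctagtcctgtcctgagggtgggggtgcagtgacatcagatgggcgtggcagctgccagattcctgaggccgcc
In the Vtn promoter TGGGAA began at position -236 and the TATAAA matches at -137 and -135, and 2 more TGGGAA matches lay past the start, at 12 and 39. In the Vcan promoter GTGGGAA began at -188, with GGGCGG at -219 and, on the other strand, at -10. In the Lamb3 promoter TGGGAA began at -213. These are matches of letters and no measure of binding. The promoters of Fbn2 and Fn1, which were also called, are not shown. Neither gene is among those with a GTGGGAA or TGGGAA match, and whether each had a promoter to search is not given here.

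Over windows of 250 bases before and 50 after the start, searched on both strands, 33 promoters of 24 of the 40 matrix genes were compared with all 32851 promoters of the table. GTGGGAA was in 5 of the 33 (15.2%), of Fbn1, Hspg2, Tnc and Vcan, and in 6.38% of all promoters. Its core TGGGAA, which lies within every GTGGGAA, was in 14 (42.4%) and in 25.6% of all promoters. GGGCGG, the GC box, was in 16 (48.5%) and in 35.7% of all, and TATAAA in 6 (18.2%) and in 13.6% of all. TGANTCA, the AP-1 motif, was in 1 (3.03%), of Ltbp3, and in 7.81% of all. Several promoters belong to the same gene and overlap, so these shares are given as a description.

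The receptors that bind these matrix proteins were counted from a list of 32 genes, of which 26 were tested. In EC-N1ICD 3 rose and none fell, and in EC-Rbpj-KO 1 rose and 2 fell, which is 11.5% in each model against 0.596% of all tested genes called in EC-N1ICD yolk sacs and 4.96% in EC-Rbpj-KO. This list too was chosen with earlier results of these data known, so the shares are a description only. Itga4, the alpha chain of an integrin for fibronectin and VCAM1, gave signals of 196 and 215 in EC-N1ICD versus 84 and 62 in wild type (log2 fold change 1.51, limma adjusted p = 0.0468). Cd44, the hyaluronan receptor, gave signals of 698 and 578 in EC-N1ICD versus 276 and 234 in wild type (log2 fold change 1.32, limma adjusted p = 0.0214). In both genes the EC-N1ICD arrays were clear of their wild type arrays, and in EC-Rbpj-KO neither was called (log2 fold changes -0.03 and 0.69).

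Ddr1, a receptor tyrosine kinase for collagen, rose in both models. Its signals were 1975 and 1925 in EC-N1ICD versus 930 and 922 in wild type, and 3726 and 4690 in EC-Rbpj-KO versus 2682 and 2041 in wild type, with log2 fold changes of 1.07 and 0.84 (limma adjusted p = 0.0156 in each). Itga6, the alpha chain of the laminin-binding alpha 6 integrins, gave signals of 850 and 1372 in EC-Rbpj-KO versus 2226 and 1954 in wild type and fell by 0.95 (limma adjusted p = 0.0358). Itgb5, which pairs with alpha v to bind vitronectin, gave signals of 795 and 657 in EC-Rbpj-KO versus 1250 and 1142 in wild type and fell by 0.73 (limma adjusted p = 0.0306). Both genes were below wild type on both EC-Rbpj-KO arrays, and in EC-N1ICD their log2 fold changes of 0.14 and -0.36 were not called. Tried under the other settings of the limma fit after the data were seen, the calls of these receptors kept their directions, but each was lost in at least 4 of 16 or 17 settings. The calls of Itga4, Cd44 and Ddr1 in EC-N1ICD were lost when any of the 4 arrays of that set was left out, with adjusted p up to 0.311, that of Itga4 also without either wild type array of the EC-Rbpj-KO set (adjusted p = 0.0635 and 0.065), and Ddr1 with the mean of its probe sets was 0.16 in EC-N1ICD yolk sacs and 0.38 in EC-Rbpj-KO. In EC-Rbpj-KO, the calls of Ddr1 (adjusted p = 0.167), Itga6 (0.13) and Itgb5 (0.151) were lost without wild type replicate 2, those of Itga6 (0.177) and Itgb5 (0.186) without wild type replicate 1, that of Itga6 without EC-Rbpj-KO replicate 1 (-0.60, adjusted p = 0.117) or either EC-N1ICD array (0.054 and 0.0535), and those of Ddr1 (0.0678) and Itgb5 (0.112) without EC-Rbpj-KO replicate 2.

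Of 50 further matrix genes 26 were tested. None was called in EC-N1ICD by limma, with 6 at an unadjusted p under 0.05, 5 higher and 1 lower, where 12% of all tested genes had such a p. In EC-Rbpj-KO 1 rose and 1 fell, which is 7.69% and near the 4.96% of all tested genes called there. Tgfbi, a TGF-beta-induced adhesion protein, gave signals of 773 and 814 in EC-Rbpj-KO versus 466 and 426 in wild type (log2 fold change 0.83, limma adjusted p = 0.0336). Vwf, von Willebrand factor of endothelium and platelets, gave signals of 48 and 56 in EC-Rbpj-KO versus 185 and 164 in wild type and fell by 1.75 (limma adjusted p = 0.00252). The call of Tgfbi was lost in 10 of 17 other settings, among them leaving out any array of the EC-Rbpj-KO set or either EC-N1ICD array (adjusted p up to 0.228), and that of Vwf was kept in all 16 run. In EC-N1ICD Vwf gave signals of 216 and 241 against 117 and 89 in wild type (log2 fold change 1.16, adjusted p = 0.0538). The difference between the models in Vwf was 2.91 (limma adjusted p = 0.00908), so that Vwf, like Fbn2, lay above wild type in EC-N1ICD and below it in EC-Rbpj-KO. Of 8 tested endothelial markers none was called in EC-N1ICD and 2 rose in EC-Rbpj-KO, with summed signals of 3880 to 4152 in EC-N1ICD and 3460 to 4841 in its wild type, and of 3058 to 4011 in EC-Rbpj-KO and 2541 to 2702 in its wild type. These sums include genes below the filter on low signals.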

How the data were processed

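The values are intensities, 1 linear signal for each of 45101 probe sets and 8 arrays, which the authors summarised from the probes and deposited, with MAS5 as the submitters' processing notes name it (version and scaling target not given in the sources used here). No column of the table was left unused (0). The methods name an array of the 430 A type, while the table holds 45101 probe sets. Of these, 34958 name 1 gene in the platform annotation, 932 several and 9211 none, and each gene was represented by its probe set of 1 gene with the highest mean signal. Signals were taken to log2 and not rescaled. Tests covered the 10913 of 18194 genes whose mean signal exceeded the 40th percentile, a minimum of 68.

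All 8 arrays entered 1 fit of 4 groups in limma 3.58.1 under R 4.3.3 (lmFit, contrasts, eBayes with trend, 4 residual and 7.37 prior degrees of freedom), with two-sided p-values adjusted by Benjamini-Hochberg over all tested genes at a threshold of 0.05. A further contrast took the EC-N1ICD change minus the EC-Rbpj-KO change. With 2 arrays on each side the smallest p of an exact permutation test is 0.333, and none was run. The number of arrays limits the precision, and background that of low signals. Promoters were matched by symbol, for 24 of 40 genes. The probe positions relative to the deleted exons of Rbpj are not known here, and whether the probe set of Notch1 detects the transgene is not stated.

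Every one of the 40 genes is named. Of the receptors and further matrix genes only those called are named, at most 6 per list and comparison, and Rbpj, Notch1 and Xist serve as checks. The genes and lists were chosen with earlier results of these data known. The steps were tested on simulated data from the spread of these arrays. The EC-N1ICD fit over 10913 genes called 20 genes shifted 1.5-fold (29.9% of these), 48 shifted 2-fold (71.6%) and 66 shifted 4-fold (100%). Beside these calls stood 18 false calls among 10713 unchanged genes. The EC-Rbpj-KO fit called 17 (25.4%), 55 (82.1%) and 66 (100%), with 12 false calls. In both fits the false calls were a larger share of all calls than the threshold on the adjusted p is meant to allow.
Alternatives were arrays centred on their median, quantile normalization, 16 added before log2, no filter or one at the 60th percentile, the mean of all probe sets, eBayes without trend, a term for sex (Xist signal above 500), the arrays of 1 set alone, the methods' t-test, and leaving out each array in turn.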

Additional observations from a re-analysis of the deposited data

Results flagged for a closer look

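The change in Fbn2 stood out because it differed between the models by the test of the difference itself. The log2 fold change in EC-N1ICD minus that in EC-Rbpj-KO was 2.25 (standard error 0.31, limma adjusted p = 0.0185), with the EC-N1ICD arrays above and the EC-Rbpj-KO arrays below both wild type arrays of their set. A further probe set gave 0.89, in the same direction. No other matrix gene was picked out, and groups of 2 arrays are too small to test for an outlying array.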

How the results depend on the processing

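No called value of the 40 matrix genes changed direction under any setting of the limma fit. Of 65 genes called in EC-N1ICD there were 118 with quantile normalization, 27 with the 60th percentile filter, 15 with a term for sex, 103 in the arrays of the set alone, and 7 to 140 without 1 array. The methods' t-test gave 939 at an unadjusted p and 0 after Benjamini-Hochberg. The 2 matrix genes called there became 1 with the mean of all probe sets, 0 with a term for sex, 8 and 0 by the methods' t-test, and 0 to 3 without 1 array. Of 541 genes called in EC-Rbpj-KO there were 266 in the arrays of the set alone, 1313 and 1 by the methods' t-test, and 147 to 628 without 1 array. The 3 matrix genes called there became 1 in the set alone, 6 and 0 by the methods' t-test, and 1 to 3 without 1 array. Of 29 genes whose change differed between models there were 17 with the mean of all probe sets, 3 without trend, 71 with a term for sex and 5 to 80 without 1 array, and the matrix genes among them, 1, became 0, 0, 2 and 0 to 2. Which matrix genes were called in EC-Rbpj-KO also varied. There were 4 with 16 added or the 60th percentile filter, and 2 with the mean of all probe sets, without trend or with a term for sex. With arrays centred they were Vtn, Emilin1 and Vcan, and without the filter Lamb3, Vtn and Vcan. The cause of these shifts was not tested.

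Centring the arrays moved the median of all genes by -0.08 (EC-N1ICD comparison, log2) and -0.07 (EC-Rbpj-KO comparison), and the split of calls moved with scaling. In EC-N1ICD 41 rose and 24 fell, against 43 and 49 with arrays centred and 69 and 49 with quantile normalization. In EC-Rbpj-KO 218 rose and 323 fell, against 149 and 294, and 357 and 303. Of the matrix genes not called, 13 of 29 in EC-N1ICD yolk sacs and 12 of 28 in EC-Rbpj-KO changed sign under at least 1 setting, so their directions are not firm. The EC-Rbpj-KO rise in Vtn passed in all 17 alternatives of the limma fit, whereas Vtn and Fbn2 in EC-N1ICD and Fn1 and Vcan in EC-Rbpj-KO each lost the call in some. Low signals near background limit Lamb3, Lama3 and Mfap5, and with 2 arrays a group the spread comes from the shared fit. A group left with 1 array is assumed to vary like the others. In each set the name of mutant replicate 1 opens with another number than the names of the other 3 arrays, of a meaning the labels do not state, and without EC-N1ICD replicate 1 neither Vtn nor Fbn2 was called in that model. No paired analysis was possible because the labels carry no replicate number shared between single mutant and wild type arrays, and the numbers used here only name the arrays.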
